A study of Mus musculus with 12 samples.

Results

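Small nucleolar RNAs (snoRNAs) and the genes named for hosting them were followed in activated CD8+ T cells, the cytotoxic lymphocytes, from Dock8 KO and WT mice. All gene symbols that begin with Snord, Snora or Snhg and a number were taken, which gave 155 of the 55291 symbols in the count table. They comprise 98 C/D box snoRNAs (Snord), 40 H/ACA box snoRNAs (Snora) and 17 snoRNA host genes (Snhg). The values below are for the 61 members with a mean of at least 10 raw counts over the 12 libraries, which are 32 C/D box snoRNAs, 15 H/ACA box snoRNAs and 14 Snhg genes. Just inside that limit lay Snord98 and Snord72, with means of 10.75 and 11.5 counts, and just outside it lay Snord23 and Snord88c, with means of 9.83 and 9.17 counts.

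The cells came from lymph node and spleen, were activated and expanded for 3 days, and were then kept for 24 h under 1 of 2 conditions, embedded in a bovine collagen gel (2 mg/mL) or in media. The 4 groups were Dock8 KO cells in gel (KO gel), Dock8 KO cells in media (KO media), WT cells in gel (WT gel) and WT cells in media (WT media), with 3 libraries each, and the sources used here give no strain, allele or age. Dock8 encodes an exchange factor for the small GTPase Cdc42, and the series title ties it to an actin pool that protects the nucleus of migrating T cells. The comparisons set gel against media in KO and in WT cells, KO against WT in gel and in media, and the gel response of KO cells against that of WT cells (the interaction).

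A C/D box snoRNA guides 2′-O-methylation of ribosomal RNA by the methyltransferase fibrillarin, and an H/ACA box snoRNA guides pseudouridylation by dyskerin. Most vertebrate snoRNAs lie in introns and are released when the host transcript is spliced and the intron trimmed. Many hosts encode ribosomal proteins or other parts of the translation machinery, while an Snhg transcript is a noncoding host whose spliced RNA is often degraded by nonsense-mediated decay. Growing cells such as activated T cells make ribosomes at a high rate and depend on both snoRNA classes.

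The sequences of 8 snoRNAs are shown because the results below turn on them. Snord49b (chr11:62603079-62603150, + strand) and Snord49a (chr11:62603450-62603521, + strand) lie side by side in 1 noncoding host, 2410006H16Rik, and had unlike log2 fold changes. Snord82 (chr1:86356261-86356330, - strand), in the nucleolin gene Ncl, and Snord83b (chr15:80078498-80078591, - strand), in the ribosomal protein gene Rpl3, rose in KO gel against KO media while their hosts fell. Snora69 (chrX:37082912-37083042, - strand), in Rpl39, fell by the largest fold among the called members. Snord17 (chr2:144265979-144266216, - strand), in Snx5, took the largest share of C/D box counts and had 1 extreme library. Snora73b (chr4:132352322-132352526, - strand) and Snora73a (chr4:132352775-132352979, - strand), both inside Rcc1 and Snhg3, are near copies with very different counts. All are on GRCm38, positioned by the GENCODE M21 annotation and printed as RNA strand in DNA letters. Capitals mark box C (TGATGA in the first 25 bases), box D (CTGA in the last 25 bases) or the ACA motif (in the last 12 bases).
Snord49b: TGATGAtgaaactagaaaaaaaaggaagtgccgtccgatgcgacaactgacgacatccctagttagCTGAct
Snord49a: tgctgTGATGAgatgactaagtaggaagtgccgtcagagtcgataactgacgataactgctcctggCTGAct
Snord82: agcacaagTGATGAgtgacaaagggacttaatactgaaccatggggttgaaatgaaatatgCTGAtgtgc
Snord83b: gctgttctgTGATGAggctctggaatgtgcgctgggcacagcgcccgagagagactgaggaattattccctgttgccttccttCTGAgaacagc
Snora69: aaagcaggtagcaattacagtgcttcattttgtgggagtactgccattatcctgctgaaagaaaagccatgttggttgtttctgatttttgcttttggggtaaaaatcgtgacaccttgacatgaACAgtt
Snord17: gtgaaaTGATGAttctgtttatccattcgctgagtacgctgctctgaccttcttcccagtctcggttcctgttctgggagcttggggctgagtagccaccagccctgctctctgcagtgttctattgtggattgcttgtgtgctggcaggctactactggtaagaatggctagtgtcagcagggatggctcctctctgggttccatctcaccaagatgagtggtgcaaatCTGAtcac
Snora73b: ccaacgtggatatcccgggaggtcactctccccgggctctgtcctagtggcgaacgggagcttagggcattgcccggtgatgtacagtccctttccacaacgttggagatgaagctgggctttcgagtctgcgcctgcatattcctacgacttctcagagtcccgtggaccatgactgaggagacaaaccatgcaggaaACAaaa
Snora73a: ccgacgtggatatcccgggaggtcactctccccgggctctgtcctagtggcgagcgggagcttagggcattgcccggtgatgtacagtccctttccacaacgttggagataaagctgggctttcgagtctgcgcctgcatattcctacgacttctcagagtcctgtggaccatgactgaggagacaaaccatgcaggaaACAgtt

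Searched on the RNA strand alone, both C/D motifs were found in 20 of the 32 reported C/D box snoRNAs (62.5%) and in 70 of all 98 (71.4%), against 0 of the 15 reported H/ACA box snoRNAs. The terminal ACA was found in 15 of 15 reported H/ACA box snoRNAs and in 38 of all 40 (95.0%), against 3 of the 32 reported C/D box snoRNAs (9.4%). The reported C/D box snoRNAs were 64 to 238 bases long with a median of 78.5 bases, and the H/ACA box snoRNAs 127 to 205 bases with a median of 137 bases. Snora73b and Snora73a were identical at 198 of 205 aligned bases (96.6%). The next closest pair, Snord49b and Snord49a, reached 69.2%.

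Before the levels, 3 facts of the libraries touch many of them. Totals were 28483064 to 61390702 counts per library. The unit of level is CPM, a gene's count per 1000000 counts of its library after TMM scaling. WT media replicate 2 stood apart in several of the longer snoRNAs, as described below. Reads at Lars2 and n-R5s1, loci that resemble or encode ribosomal RNA, made up 3.74% of counts in WT gel replicate 2 and 2.31% in KO media replicate 3, against 0.35 to 1.2% in the other 10 libraries. At a common depth of 28483064 counts, KO gel libraries detected 28381 to 30106 genes, against 24336 to 25140 in the other 9 libraries. Mitochondrial transcripts held 2.27 to 2.61% of counts in KO gel and 1.34 to 2.32% in the other groups. Dock8 stood at 158 to 168 CPM in KO gel and 109 to 126 CPM in KO media, against 378 to 450 CPM in WT gel and 363 to 443 CPM in WT media, so reads from the gene remained in KO cells. The CD8 T cell markers Cd3e, Cd8a and Cd8b1 summed to 1353 to 1745 CPM in every library. The 4 B cell markers summed to 0.950 to 1.07 CPM in KO gel, against 0.534 to 0.831 CPM in the other 9 libraries, and the 3 macrophage markers to 0.238 to 0.824 CPM in KO gel, against 0.025 to 0.194 CPM. Both sums were thus low and were higher in every KO gel library than in the other 9. Cd4 and Foxp3 summed to 4.49 to 7.63 CPM in KO gel, against 2.89 to 6.32 CPM, and the neutrophil markers S100a8 and S100a9 to 0 CPM in KO gel, against at most 0.031 CPM. The sums of erythroid, NK and stromal markers overlapped between KO gel and the other libraries and were at most 1.35 CPM. Cd4 was higher in KO gel than in KO media (log2 fold change 0.81 ± 0.25 (SE), adjusted p = 0.0348) by edgeR's quasi-likelihood test. The part of these differences in the snoRNA values was not tested.

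Which snoRNAs had any counts followed their position in the annotation. Of the 138 snoRNA genes, 73 stood at 0 counts in all 12 libraries, 18 had counts with a mean below 10, and 47 had a mean of at least 10. Of the 73 at 0, 54 (74.0%) lay wholly inside an exon annotated for another gene on the same strand. None of the 65 snoRNAs with counts did. Of the 47 reported, 43 lay outside every other annotated exon, 3 lay partly in one, and Snora73b lay wholly in an exon of Gm17300 on the opposite strand. The 19 others at 0 were 17 copies of the Snord116 cluster, which is imprinted and known from neurons, together with Snord123 and Snora35. The snoRNAs at 0 included Snora24 in Snhg8, Snord50a and Snord50b in Snhg5, Snora16a, Snora44, Snora61 and Snord99 in Snhg12, Snord22 in Snhg1 and Snora9 in Snhg15. A count of 0 therefore cannot be read as absence of the RNA for snoRNAs inside an annotated exon, because how the authors' counting assigned such reads is not given in the sources used here.

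**Figure D1:**
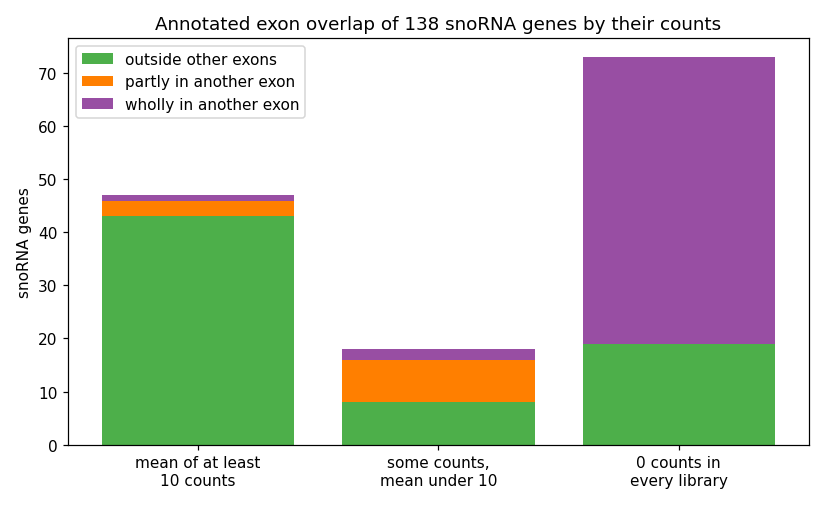
Number of snoRNA genes (y axis) in 3 classes of count (x axis), with colours for their overlap with exons of other genes in GENCODE M21. The 47 reported genes lie mainly outside other exons, while 54 of the 73 genes at 0 lie wholly inside one.

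The same holds within the Snhg genes. In M21, 15 Snhg genes were placed, and they held 29 small RNA genes when Snhg14 is left out, 8 of them in Snhg1 alone. Only Snord87 in Snhg6, Snora78 in Snhg9, Snora73a and Snora73b in Snhg3 and the Cajal body RNA Scarna13 in Snhg10 had counts among those 29. Of the 47 reported snoRNAs, 10 C/D and 3 H/ACA members lay in ribosomal protein genes, 12 C/D and 8 H/ACA members in other protein-coding genes, and 6 C/D members in other noncoding genes. For another 3 of each class no same-strand host was found, namely Snord13, Snord118 and Snord104, and Snora43, Snora17 and Snora57. The search took only M21 genes that wholly contain the snoRNA and whose symbol is in the count table. A host outside these would be missed. Snord13 (U13) and Snord118 (U8) are known to be transcribed from their own promoters, and U8 is needed for processing of the large-subunit ribosomal RNAs.

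A few members held most of the reads. The 61 members took 0.0394 to 0.0757% of all counts, the highest share being that of WT media replicate 2. Snord17 made up 46.3% of the mean C/D box sum (34.8 to 72.5% by library), and Snora73b made up 64.3% of the mean H/ACA box sum (58.3 to 68.7%). Per kilobase of annotated length, Snora73b had the highest mean level at 441 CPM per kb, followed by Snord17 at 196, Snora78 at 156 and Snord49b at 88.0 CPM per kb. The Snhg genes with an M21 length lay between 0.026 and 35.4 CPM per kb, with Snhg9 the highest.

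Snord17 had 43.02, 40.02 and 39.5 CPM in KO gel, 34.2, 43.1 and 26.97 in KO media, 38.4, 29.1 and 29.02 in WT gel and 30.7, 176 and 30.9 in WT media. Snord15a (U15), in the ribosomal protein gene Rps3, had 8.95, 8.54 and 7.66 CPM in KO gel, 6.64, 8.12 and 6.74 in KO media, 6.34, 5.73 and 5.77 in WT gel and 5.90, 16.5 and 5.89 in WT media. Both were highest in WT media replicate 2, by a wide margin over the other 11 libraries. Snord13 had 6.73, 9.61 and 6.01 CPM in KO gel, 6.10, 10.4 and 6.62 in KO media, 6.95, 8.04 and 4.43 in WT gel and 6.89, 7.34 and 5.12 in WT media. Snord49b had 7.65, 8.81 and 6.73 CPM in KO gel, 6.15, 7.65 and 6.23 in KO media, 5.40, 5.77 and 4.33 in WT gel and 5.77, 7.04 and 4.53 in WT media. Snord104 had 4.20, 5.74 and 4.76 CPM in KO gel, 2.88, 4.33 and 3.05 in KO media, 3.24, 4.50 and 2.22 in WT gel and 4.03, 4.16 and 2.54 in WT media. For these 3 the replicates of a group spread about as widely as the groups, except that Snord49b was higher in KO gel than in WT gel in every library.

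Among H/ACA box snoRNAs, Snora73b (the U17 or E1 snoRNA, needed for early cleavages of the small-subunit pre-ribosomal RNA) had 118, 105 and 86.5 CPM in KO gel, 66.6, 101 and 68.4 in KO media, 91.4, 76.6 and 70.9 in WT gel and 75.2, 164 and 61.9 in WT media. Its near copy Snora73a had a mean of 0.348 CPM. Snora78, in Snhg9, had 22.9, 21.6 and 20.6 CPM in KO gel, 19.2, 17.2 and 14.6 in KO media, 20.7, 18.8 and 16.8 in WT gel and 18.02, 35.1 and 13.8 in WT media. WT media replicate 2 was again the highest library for both Snora73b and Snora78. Snora57 had 10.8, 10.7 and 10.4 CPM in KO gel, 10.9, 13.1 and 8.77 in KO media, 11.6, 9.31 and 8.84 in WT gel and 9.22, 14.2 and 6.36 in WT media. Snora21, in Rpl23, had 4.33, 4.02 and 3.49 CPM in KO gel, 3.89, 4.57 and 3.85 in KO media, 3.74, 2.83 and 3.10 in WT gel and 2.47, 5.71 and 3.71 in WT media. Snora17 had 3.11, 4.67 and 3.42 CPM in KO gel, 2.27, 3.77 and 2.79 in KO media, 3.41, 3.66 and 2.49 in WT gel and 2.88, 6.46 and 2.13 in WT media. In these 3 as well WT media replicate 2 held the highest value. The other groups overlapped, except that Snora21 was higher in every KO media library than in every WT gel library.

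Snora23, in the import receptor gene Ipo7, had 2.82, 3.82 and 2.82 CPM in KO gel, 3.04, 4.65 and 2.44 in KO media, 3.27, 2.51 and 2.29 in WT gel and 2.70, 6.78 and 2.69 in WT media. Snora62, in Rpsa, had 2.80, 3.00 and 2.22 CPM in KO gel, 1.95, 2.57 and 2.21 in KO media, 1.94, 1.59 and 1.13 in WT gel and 1.82, 5.95 and 1.96 in WT media. Snora31, in Tpt1, had 2.03, 1.97 and 1.67 CPM in KO gel, 1.64, 2.05 and 1.64 in KO media, 1.83, 1.71 and 1.33 in WT gel and 1.55, 3.09 and 1.77 in WT media. These 3 share the high value in WT media replicate 2. Snora43 had 1.32, 1.20 and 1.15 CPM in KO gel, 1.34, 1.96 and 1.51 in KO media, 1.25, 1.79 and 1.01 in WT gel and 1.35, 1.56 and 1.39 in WT media. Snora47, in Zbed3, had 0.501, 0.699 and 0.648 CPM in KO gel, 0.645, 0.538 and 0.744 in KO media, 0.720, 0.637 and 1.01 in WT gel and 0.487, 0.743 and 1.02 in WT media. Snora43 was lower in every KO gel library than in every KO media library and was not called (log2 fold change -0.38 ± 0.21 (SE), adjusted p = 0.21), and Snora47 overlapped among the groups.

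The host genes varied less between replicates. Snhg1, the U22 host gene, had 65.6, 62.2 and 63.7 CPM in KO gel, 65.5, 73.5 and 66.7 in KO media, 66.7, 67.1 and 61.9 in WT gel and 68.9, 67.6 and 66.4 in WT media. Snhg8 had 24.2, 27.99 and 29.2 CPM in KO gel, 28.6, 28.03 and 26.05 in KO media, 30.8, 23.01 and 25.5 in WT gel and 28.5, 25.5 and 24.9 in WT media. Snhg17 had 23.7, 27.4 and 22.8 CPM in KO gel, 28.5, 30.1 and 26.7 in KO media, 25.8, 25.04 and 22.4 in WT gel and 23.96, 27.5 and 24.1 in WT media. In these 3 the KO gel libraries overlapped the other groups, except that Snhg1 was lower in every KO gel library than in every WT media library. Snhg4 had 22.2, 23.5 and 22.7 CPM in KO gel, 22.4, 28.8 and 25.5 in KO media, 24.1, 21.7 and 18.3 in WT gel and 22.6, 23.3 and 20.8 in WT media. Snhg5 had 14.3, 15.2 and 14.9 CPM in KO gel, 11.6, 16.7 and 14.1 in KO media, 13.1, 12.6 and 11.6 in WT gel and 12.3, 13.2 and 11.998 in WT media. Snhg3 had 12.2, 12.8 and 12.4 CPM in KO gel, 11.1, 14.2 and 12.7 in KO media, 11.2, 11.2 and 9.65 in WT gel and 10.1, 11.5 and 10.1 in WT media. Both Snhg5 and Snhg3 were higher in every KO gel library than in every WT library, and neither was called. Between KO gel and WT gel, 38.2% of all genes did not overlap. Snhg3 is the host of the H/ACA pair Snora73a and Snora73b, and in WT media replicate 2 it stood at 1.14 times the mean of WT media replicates 1 and 3. Snhg14, the imprinted host of the Snord115 and Snord116 clusters, had 1.32, 0.599 and 0.748 CPM in KO gel, 0.472, 0.880 and 0.462 in KO media, 0.692, 0.756 and 0.856 in WT gel and 0.468, 0.372 and 0.470 in WT media. WT gel lay above WT media without overlap, and no contrast was called for it.

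WT media replicate 2 differed from its replicates in part of the snoRNAs and not in Snhg genes, and the median ratio was larger for longer snoRNAs. The Snord17 level in WT media replicate 2 was 5.72 times the mean of WT media replicates 1 and 3. The same ratio was 3.14 for Snora62, 2.80 for Snord15a, 2.57 for Snora17, 2.52 for Snora23, 2.39 for Snora73b, 2.30 for Snord118 and 2.21 for Snora78. Its median was 1.17 over the 25 snoRNAs of 64 to 99 bases, 1.38 over the 18 of 100 to 149 bases and 2.45 over the 4 of 150 to 238 bases, a group of very few genes. Length alone did not set the ratio, as Snora73a, 205 bases long and the near copy of Snora73b, stood at 1.1. The 9 small Cajal body RNAs summed to 309 CPM in WT media replicate 2, against 357 and 328 CPM in WT media replicates 1 and 3. Over classes it was 1.20 for C/D box snoRNAs, 1.82 for H/ACA box snoRNAs and 1.00 for Snhg genes, which ran from 0.79 to 1.15. WT media replicate 2 was the highest of the 12 libraries for 12 of the 47 snoRNAs. Contrasts with WT media are therefore given with and without it.

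**Figure D2:**
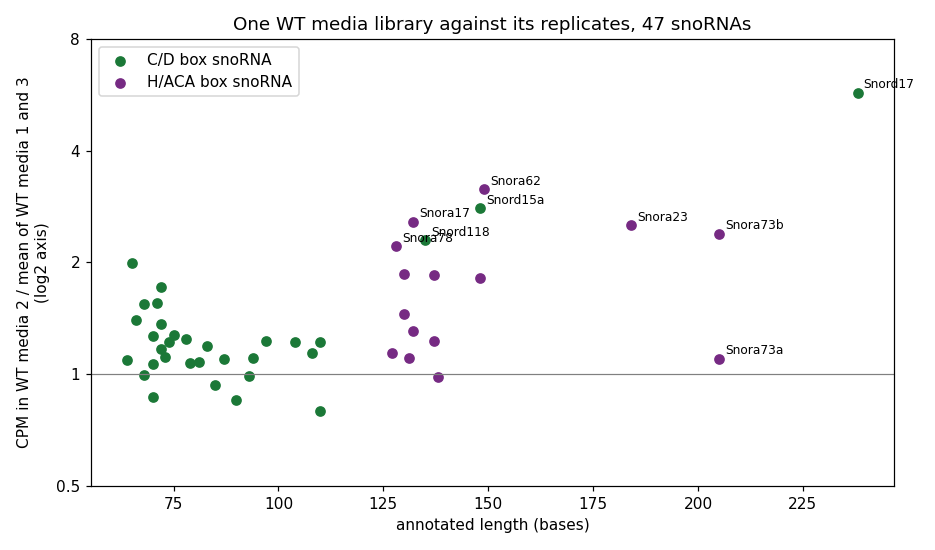
Ratio of the CPM in WT media replicate 2 to the mean of WT media replicates 1 and 3 (y axis, log2 scale) against annotated length in bases (x axis), 1 point per reported snoRNA. Snord17, the longest, lies at 5.72, and the 25 snoRNAs under 100 bases have a median of 1.17.

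Gel against media in KO cells changed 8 of the 61 members, 4 higher and 4 lower, each tested by edgeR's quasi-likelihood F test with Benjamini-Hochberg adjustment over 19010 genes and called at an adjusted p under 0.05. The share called among all genes was 11.1% higher and 9.74% lower. With 61 members, 4 calls in each direction lie close to these shares and are not read as a result about the members. Of C/D box snoRNAs 2 rose (Snord83b and Snord82) and 2 fell (Snord49a and Snord93), of H/ACA box snoRNAs 1 fell (Snora69), and of Snhg genes 2 rose (Snhg15 and Snhg20) and 1 fell (Snhg6). DESeq2 did not call Snord93 or Snora69, and limma-voom did not call Snhg6, while both called the others. The median log2 fold change was 0.19 for C/D box snoRNAs, 0.09 for H/ACA box snoRNAs and 0.00 for Snhg genes, against -0.01 over all genes. At an unadjusted p under 0.05 stood 12 of 61 members, against 36.7% of all genes.

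Snord83b had 4.51, 5.02 and 3.44 CPM in KO gel, 2.58, 2.96 and 2.51 in KO media, 2.63, 2.87 and 2.29 in WT gel and 2.75, 2.67 and 2.07 in WT media. Every KO gel library lay above every other library, a separation whose share over all genes was not computed. The rise over KO media had a log2 fold change 0.69 ± 0.17 (SE), adjusted p = 0.011. Snord82 had 3.19, 2.92 and 2.52 CPM in KO gel, 1.53, 2.42 and 1.92 in KO media, 1.30, 1.79 and 1.31 in WT gel and 1.78, 1.79 and 1.58 in WT media. KO gel was again above the other 9 libraries, and against KO media it had a log2 fold change 0.57 ± 0.19 (SE), adjusted p = 0.0436. KO media replicate 2, at 2.42 CPM, came closest to the KO gel values.

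Snord49a had 2.88, 3.07 and 2.24 CPM in KO gel, 3.73, 4.99 and 3.79 in KO media, 3.32, 3.10 and 2.27 in WT gel and 3.24, 3.53 and 2.82 in WT media. The KO gel libraries lay below the KO media libraries and overlapped both WT groups, with a log2 fold change -0.61 ± 0.18 (SE), adjusted p = 0.0293 against KO media. Snord93, in 2700038G22Rik, had 0.264, 0.200 and 0.274 CPM in KO gel, 0.440, 0.514 and 0.436 in KO media, 0.305, 0.279 and 0.378 in WT gel and 0.319, 0.465 and 0.278 in WT media, with a log2 fold change -0.90 ± 0.29 (SE), adjusted p = 0.0426. Its counts were 8 to 28 reads per library, and KO gel lay below every other library. Snora69 had 0.211, 0.225 and 0.150 CPM in KO gel, 0.409, 0.440 and 0.385 in KO media, 0.332, 0.239 and 0.302 in WT gel and 0.206, 0.302 and 0.342 in WT media, from 6 to 26 reads per library. KO gel lay below KO media without overlap and overlapped WT media, with a log2 fold change -1.07 ± 0.31 (SE), adjusted p = 0.0259 against KO media.

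Of the host genes, Snhg15 had 23.9, 27.3 and 27.2 CPM in KO gel, 19.6, 19.9 and 19.8 in KO media, 23.2, 18.5 and 15.97 in WT gel and 18.8, 18.2 and 16.4 in WT media. It was higher in every KO gel library than in the other 9, with a log2 fold change 0.41 ± 0.11 (SE), adjusted p = 0.0195 against KO media. Snhg20 had 12.2, 10.8 and 10.2 CPM in KO gel, 8.40, 9.68 and 8.31 in KO media, 9.44, 8.52 and 8.01 in WT gel and 9.20, 8.45 and 9.03 in WT media, with the same separation and a log2 fold change 0.33 ± 0.10 (SE), adjusted p = 0.0345. Snhg6 had 16.7, 15.95 and 16.1 CPM in KO gel, 19.3, 20.1 and 19.5 in KO media, 18.5, 19.4 and 16.9 in WT gel and 21.001, 17.98 and 16.1 in WT media. Snhg6 was lower in all KO gel libraries than in all KO media libraries, with a log2 fold change -0.27 ± 0.09 (SE), adjusted p = 0.0473, and WT media replicate 3 lay within the KO gel range.

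**Figure D3:**
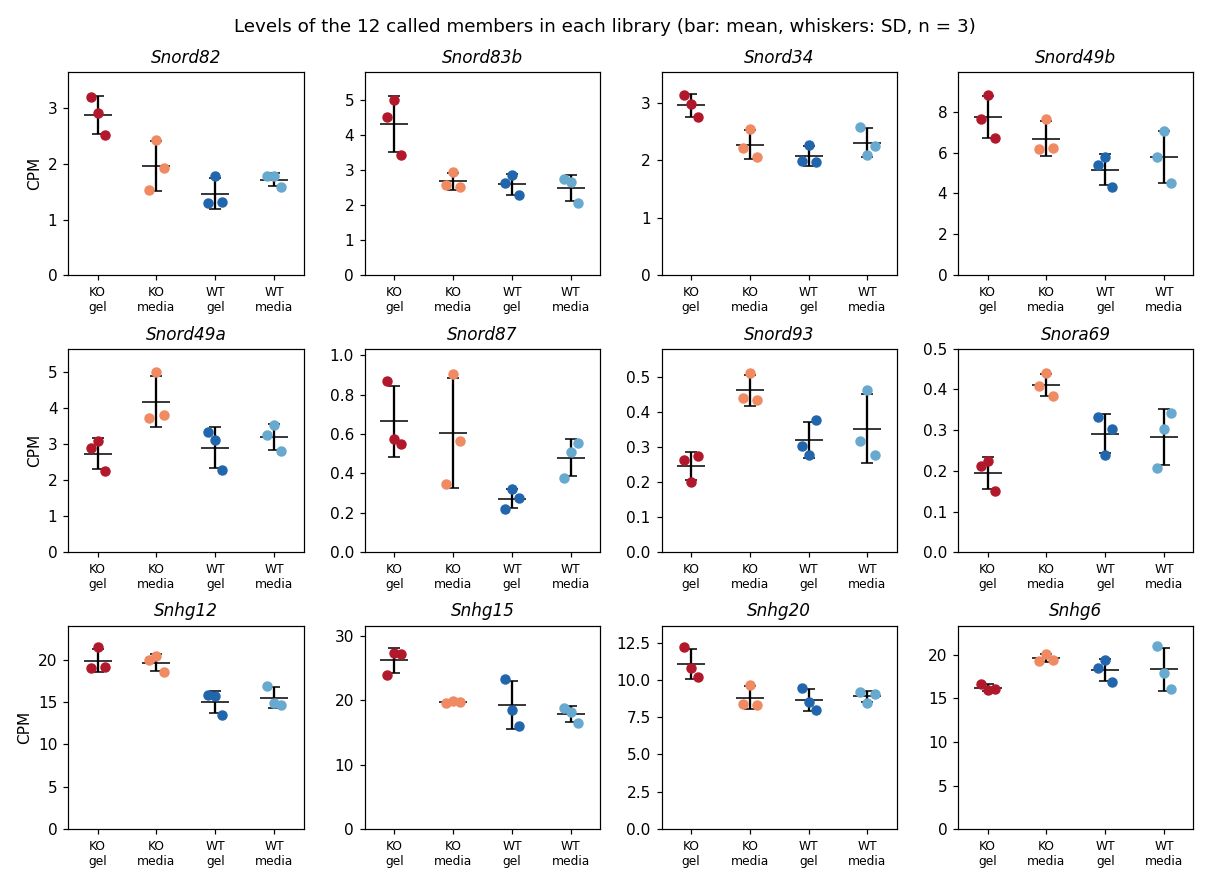
CPM (y axis, starting at 0) of the 12 members called in at least 1 contrast, by group (x axis), with points for libraries, a bar for the mean and whiskers for the SD (n = 3). Snord82, Snord83b, Snord34, Snhg15 and Snhg20 have all 3 KO gel libraries above the other 9, and Snord93 has them below. The share of all genes with such a separation was not computed.

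Whether these 8 members passed the threshold depended on the libraries fitted, and a fit with fewer libraries can detect less. Leaving out 1 library at a time left 1 to 8 of them, with 1 (Snhg15) left without KO gel replicate 1, 2 without KO gel replicate 2, KO gel replicate 3 or KO media replicate 1, 3 without KO media replicate 2 or KO media replicate 3, and 5 without WT gel replicate 2. With WT gel replicate 2 and KO media replicate 3 both left out there were 0 calls. The direction of each of the 8 was the same in all of these fits. Over the main and all alternative fits, the log2 fold change ran from 0.57 to 0.83 for Snord83b and 0.40 to 0.75 for Snord82. It ran from 0.36 to 0.48 for Snhg15 and 0.24 to 0.40 for Snhg20. For those that fell it ran from -0.70 to -0.47 (Snord49a), -0.99 to -0.77 (Snord93), -1.18 to -0.91 (Snora69) and -0.32 to -0.20 (Snhg6).

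For KO against WT in gel, 8 members were higher and 0 lower by the same test. Of all genes, 7.12% were called higher and 7.71% lower. The 8 were the C/D box snoRNAs Snord82, Snord83b, Snord49b, Snord34 and Snord87 and the host genes Snhg12, Snhg15 and Snhg20, and 0 of the 15 H/ACA box snoRNAs were called (0 at an unadjusted p under 0.05, and 0 by DESeq2 and limma-voom). DESeq2 called the same 8, and limma-voom called them apart from Snord87. The median log2 fold change was 0.34 for C/D box, 0.23 for H/ACA box and 0.11 for Snhg genes, against 0.00 over all genes. Positive values were found in 26 of 32 C/D box snoRNAs, 11 of 15 H/ACA box snoRNAs and 12 of 14 Snhg genes, against 49.9% of all genes. With scaling by total counts the median of all genes moved to 0.10 and those of the classes to 0.44, 0.33 and 0.22. This contrast and gel against media in KO cells share the KO gel libraries, so their values are not independent of each other.

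Snord82 had the smallest adjusted p of the members, with a log2 fold change 0.99 ± 0.20 (SE), adjusted p = 0.00465, and KO gel was above WT gel in every library. Snord83b had a log2 fold change 0.74 ± 0.17 (SE), adjusted p = 0.0108. Snord49b, given above by library, had a log2 fold change 0.59 ± 0.17 (SE), adjusted p = 0.0322. Snord34, in Rpl13a, a host whose snoRNAs are known in mouse from the response to toxic lipids, had 3.14, 2.97 and 2.74 CPM in KO gel, 2.22, 2.54 and 2.05 in KO media, 1.99, 2.27 and 1.96 in WT gel and 2.59, 2.09 and 2.24 in WT media. KO gel lay above the other 9 libraries, with a log2 fold change 0.51 ± 0.15 (SE), adjusted p = 0.0329 against WT gel. Snord87 had 0.871, 0.574 and 0.549 CPM in KO gel, 0.346, 0.905 and 0.564 in KO media, 0.222, 0.318 and 0.277 in WT gel and 0.375, 0.511 and 0.555 in WT media, from 8 to 37 reads per library, with a log2 fold change 1.29 ± 0.39 (SE), adjusted p = 0.0392. KO gel lay above WT gel without overlap, while KO media spread across both.

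Snhg12 had 19.03, 21.4 and 19.1 CPM in KO gel, 19.98, 20.4 and 18.6 in KO media, 15.8, 15.7 and 13.5 in WT gel and 16.9, 14.8 and 14.7 in WT media. KO was above WT in all libraries of both cultures, with a log2 fold change 0.41 ± 0.09 (SE), adjusted p = 0.0083 in gel. In media the log2 fold change 0.34 ± 0.09 (SE), adjusted p = 0.281, the smallest adjusted p of the members there, did not pass. Snhg15 had a log2 fold change 0.45 ± 0.11 (SE), adjusted p = 0.0166 in gel, where WT gel replicate 1 came closest to the KO gel libraries. Snhg20 had a log2 fold change 0.35 ± 0.10 (SE), adjusted p = 0.0344. Leaving out 1 library at a time gave 2 to 9 calls, 2 without KO gel replicate 2 (Snhg12 and Snord82), 3 without WT gel replicate 3, 4 without WT gel replicate 2 or KO gel replicate 1, and 5 without WT gel replicate 1 or KO gel replicate 3. Without WT gel replicate 2 and KO media replicate 3 together there were 3, namely Snhg12, Snord82 and Snord83b.

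**Figure D4:**
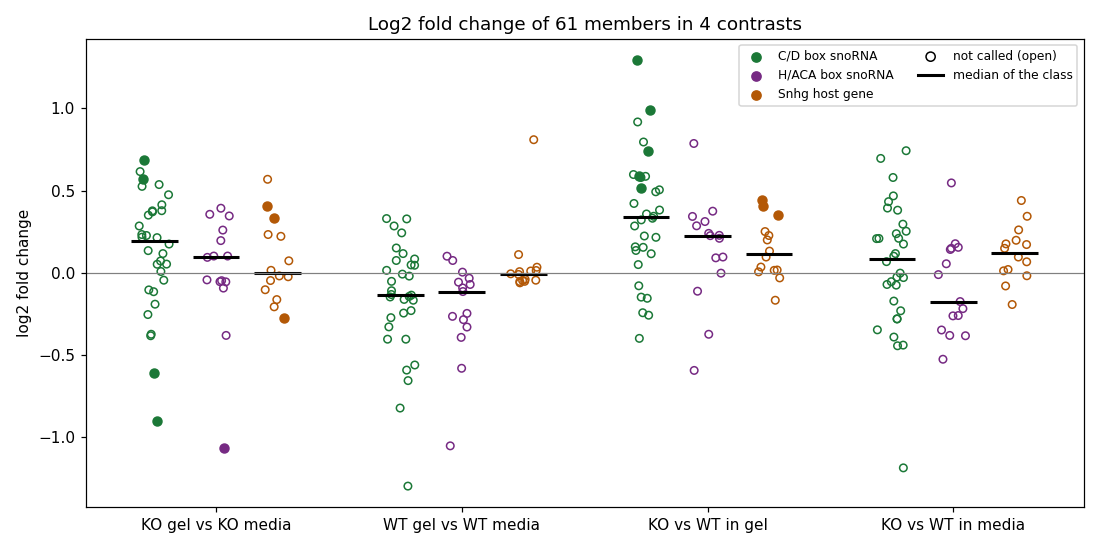
Log2 fold change (y axis) of the 61 members in 4 contrasts (x axis), by class, with filled points for called members and a black bar for the class median. C/D box snoRNAs have a median of 0.34 for KO against WT in gel, and WT gel against WT media has no filled point.

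Gel against media in WT cells called 0 of 61 members by edgeR's quasi-likelihood test, with 2 at an unadjusted p under 0.05, Snora62 and Snhg14. By DESeq2 and limma-voom the count was also 0. The background was 0.0316% higher and 0.00526% lower. Class medians were -0.13, -0.11 and -0.01 for C/D box, H/ACA box and Snhg genes, against -0.01 over all genes. Without WT media replicate 2 there were again 0 calls, and the medians were 0.01, 0.08 and 0.00, against -0.01. Snord17 had a log2 fold change -1.30 ± 0.64 (SE), adjusted p = 0.945, a difference that rests on WT media replicate 2.

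KO against WT in media also called 0 of 61, with 5 at an unadjusted p under 0.05 and 0 by DESeq2 and limma-voom, against a background of 0.0263% higher and 0.163% lower. The medians were 0.08, -0.17 and 0.12 for the 3 classes, against -0.01 over all genes, and without WT media replicate 2, with 0 calls, they were 0.19, 0.21 and 0.12. The C/D median in WT gel against WT media and the H/ACA medians of both contrasts thus changed sign without that library. Snord43, which lies in Rpl3 beside Snord83b, had 1.72, 1.85 and 1.32 CPM in KO gel, 1.89, 1.79 and 1.90 in KO media, 1.30, 1.27 and 1.08 in WT gel and 1.33, 1.46 and 1.24 in WT media, with a log2 fold change 0.47 ± 0.17 (SE), adjusted p = 0.546 in media and a log2 fold change 0.42 ± 0.18 (SE), adjusted p = 0.127 in gel. Snord58b, in Rpl17, had 0.686, 0.824 and 0.748 CPM in KO gel, 0.582, 0.489 and 0.795 in KO media, 0.554, 0.438 and 0.504 in WT gel and 0.431, 0.511 and 0.299 in WT media, with a log2 fold change 0.58 ± 0.26 (SE), adjusted p = 0.647 in media. In both snoRNAs KO media lay above WT media, except that the KO media minimum of Snord58b lay below 1 WT media value.

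The difference between the gel response of KO and of WT cells (the interaction) called 0 of 61, with 7 at an unadjusted p under 0.05 and 0 by DESeq2 and limma-voom. The background was 1.89% higher and 1.45% lower. Snord82 had the smallest adjusted p, with a difference of 0.81 on the log2 scale (adjusted p = 0.12), followed by Snord89 at 0.88 (adjusted p = 0.135) and Snord83b at 0.64 (adjusted p = 0.162). Snord89 had 1.29, 1.15 and 0.923 CPM in KO gel, 0.771, 0.832 and 0.821 in KO media, 0.582, 0.717 and 0.907 in WT gel and 0.993, 1.11 and 0.833 in WT media. In this fit no single member's gel response differed between the genotypes past the threshold. The count of 0 depended on the fit, and with no filter beyond 1 count it was 5, namely Snora62, Snora73b, Snora78, Snord15a and Snord17, all of them highest in WT media replicate 2. Class medians of the interaction were 0.30, 0.23 and -0.01, against 0.00 over all genes, and 0.19, 0.02 and -0.03 without WT media replicate 2.

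Of the 61 members, 25 are not given by library. They are 18 C/D box snoRNAs with mean levels of 0.260 to 3.52 CPM, 4 H/ACA box snoRNAs with 0.287 to 1.13 CPM and the hosts Snhg16, Snhg9 and Snhg10 with 0.925 to 12.3 CPM. None was called, and their log2 fold changes for gel against media in KO cells ran from -0.38 to 0.62, -0.05 to 0.20 and -0.05 to 0.23 in the 3 classes. For KO against WT in gel the ranges were -0.26 to 0.92, 0.00 to 0.34 and 0.01 to 0.13.

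For some pairs of neighbouring snoRNAs of 1 host, the ratio of their levels in KO gel lay apart from the other groups. The Snord49b level over the Snord49a level was 2.66, 2.87 and 3.00 in KO gel, 1.65, 1.53 and 1.64 in KO media, 1.62, 1.86 and 1.91 in WT gel and 1.78, 1.99 and 1.61 in WT media. All KO gel ratios, 2.66 to 3.00, lay above all others, which ran from 1.53 to 1.99. The log2 ratio was 0.82 higher in KO gel than in KO media and 0.66 higher in KO gel than in WT gel, each at p = 0.1 by exact permutation (two-sided), which is as low as 3 libraries against 3 can reach. In Rpl3, the Snord83b level over the Snord43 level was 2.63, 2.72 and 2.60 in KO gel, 1.37, 1.66 and 1.32 in KO media, 2.02, 2.25 and 2.12 in WT gel and 2.07, 1.83 and 1.67 in WT media. KO gel was the highest group here too, with p = 0.1 against KO media and against WT gel in the same exact test. Snord49a, Snord49b and Snord83b were themselves called in contrasts of these libraries. These ratios and their p-values thus add no support of their own.

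In Rpl13a, the Snord34 level over the Snord35a level was 3.61, 3.31 and 2.89 in KO gel, 2.43, 2.89 and 2.50 in KO media, 1.64, 2.11 and 2.11 in WT gel and 2.65, 2.20 and 1.78 in WT media. KO gel lay above all other libraries, though its lowest ratio and that of KO media replicate 2 were nearly equal (2.895 against 2.889). Snord34 was itself called for KO against WT in gel, so this ratio adds no support of its own either. Snord32a over Snord34 overlapped among the groups. In all, 8 pairs of reported snoRNAs share a host, and the KO gel libraries did not overlap KO media in 4 pairs and did not overlap WT gel in 4 pairs. For WT gel against WT media this was 0 pairs, and for KO media against WT media 1 pair. Among the levels of all 19010 genes, the 3 libraries of a group did not overlap those of the other in 47.4% for KO gel against KO media and 38.2% for KO gel against WT gel. For WT gel against WT media this was 9.18%, and for KO media against WT media 10.7%. The pairs' counts were near these shares, which are of single-gene levels and not of ratios. The pairs share members, so these counts are not of independent pairs.

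In KO gel the log2 fold change of most snoRNAs stood above that of the gene that holds them. For the 41 snoRNAs with a same-strand host, the log2 fold change of the snoRNA exceeded that of the host in 35 for gel against media in KO cells, in 34 for KO against WT in gel, in 23 for KO against WT in media and in 15 for gel against media in WT cells. In KO gel against KO media the median was 0.14 over the snoRNAs and -0.24 over their hosts, and in WT gel against WT media -0.14 and -0.03. Without WT media replicate 2 the counts were 35, 34, 33 and 28 of 41 in the same order, so the last 2 counts rested on that library. Without WT gel replicate 2 and KO media replicate 3 they were 33, 36, 22 and 11. With WT media replicate 2 left out besides, they were 33, 36, 32 and 27, so most snoRNAs then stood above their host in every contrast. The first pair of contrasts share the KO gel libraries, and several snoRNAs share a host. Reads on a snoRNA from unspliced host RNA and from the processed snoRNA cannot be told apart in gene counts.

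The 34 hosts not named Snhg, counted with Gas5, had 1 higher and 6 lower in KO gel against KO media, where 11.1% of all genes were called higher and 9.74% lower. The 6 that fell were Ipo7 (a nuclear import receptor) at -0.58 (adjusted p = 0.000534), Snx5 (a sorting nexin of endosomes) at -0.41 (adjusted p = 0.000597), Rcc1 (the exchange factor for Ran) at -0.37 (adjusted p = 0.00115), Ncl at -0.30 (adjusted p = 0.0107), Rpl3 at -0.36 (adjusted p = 0.026) and Rpl39 at -0.26 (adjusted p = 0.0485), all log2 fold changes. Gm15832, which holds Snord89, rose at 0.84 (adjusted p = 0.018). Their medians were -0.21 in KO gel against KO media and -0.11 in KO against WT gel. Ipo7, Rcc1 and Snx5 also fell in KO against WT gel, at -0.33 (adjusted p = 0.0213), -0.39 (adjusted p = 0.00107) and -0.37 (adjusted p = 0.00158). The interaction was called for all 3, at -0.58 (adjusted p = 0.0231), -0.40 (adjusted p = 0.0268) and -0.39 (adjusted p = 0.03).

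Snord82 and its host Ncl, and Snord83b and its host Rpl3, were thus called in opposite directions in KO gel against KO media. Per 1000 CPM of Ncl, Snord82 stood at 3.78, 3.31 and 3.09 in KO gel, 1.51, 2.25 and 1.83 in KO media, 1.38, 1.92 and 1.55 in WT gel and 1.74, 1.82 and 1.74 in WT media. Per 1000 CPM of Rpl3, Snord83b stood at 9.91, 10.9 and 7.81 in KO gel, 4.24, 4.91 and 4.68 in KO media, 4.25, 5.49 and 4.59 in WT gel and 4.20, 5.13 and 4.13 in WT media. In both, each KO gel value was above all 9 others. Both pairs were picked for their opposite calls in these libraries, so this separation adds no support of its own. Of 43 ratios of a snoRNA to its host, KO gel did not overlap KO media in 14 and WT gel in 18. By level, 47.4% and 38.2% of all genes did not overlap in these 2 contrasts. Per 1000 CPM of Snx5, Snord17 stood at 180.4, 171 and 168 in KO gel, 112, 131 and 87.8 in KO media, 125, 96.2 and 94.8 in WT gel and 92.9, 589 and 104 in WT media. For Snord17, KO gel exceeded the other groups apart from WT media replicate 2. Snora73b against Rcc1 had the same order, with 2117, 1859.5 and 1449 in KO gel, 878, 1347 and 952 in KO media, 1144, 1074 and 950.1 in WT gel and 976, 2292 and 842 in WT media per 1000 CPM of Rcc1, and only WT media replicate 2 was higher than the highest KO gel value. Set against Snhg3, which also holds it, Snora73b stood at 9629, 8248 and 6982 in KO gel, 5999, 7119 and 5386 in KO media, 8168, 6847 and 7349.9 in WT gel and 7433, 14224 and 6155 in WT media per 1000 CPM of Snhg3, and there KO gel overlapped each of the other groups.

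**Figure D5:**
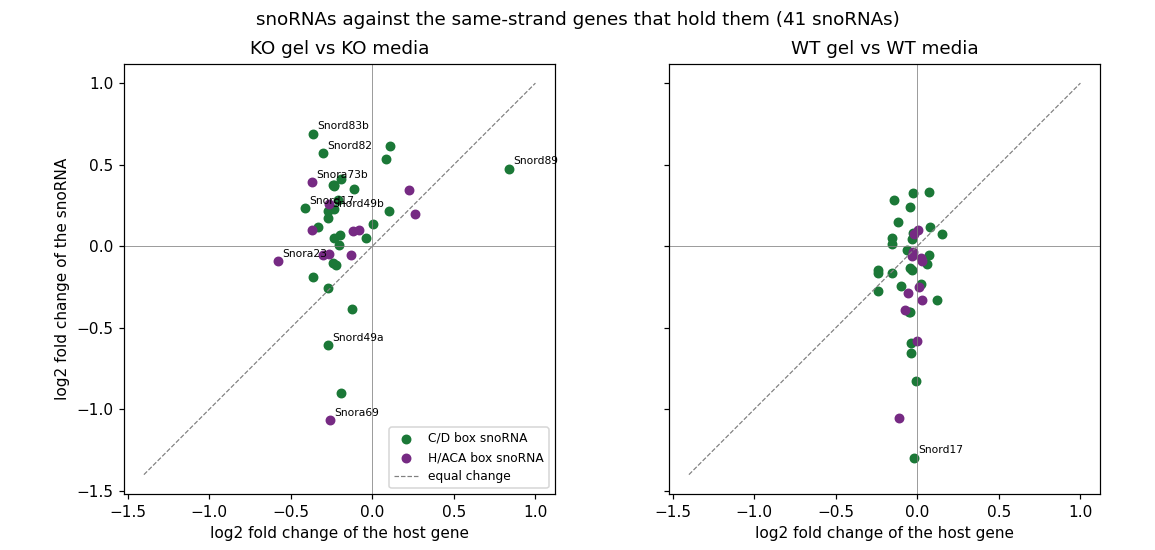
Log2 fold change of 41 snoRNAs (y axis) against that of the gene that holds each (x axis), for gel against media in KO cells (left) and in WT cells (right), with the dashed line at equal change. In KO cells 35 points lie above the line, and in WT cells 15 do, or 28 without WT media replicate 2.

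Transcripts of the proteins that bind, assemble and trim snoRNAs were lower or not called in KO gel against KO media, and protein was not measured. The background in this contrast was 11.1% of all genes higher and 9.74% lower, and with lists this short a few calls lie close to it. Of 5 core C/D box proteins 1 fell, Snu13 (which binds the kink-turn of the C and D boxes), at a log2 fold change of -0.43 (adjusted p = 0.00265), and Snu13 was also lower for KO against WT in gel at -0.26 (adjusted p = 0.0496) and in the interaction at -0.46 (adjusted p = 0.0445). The methyltransferase Fbl had -0.33 (adjusted p = 0.154). Of 4 core H/ACA proteins 0 were called, with 2 at an unadjusted p under 0.05 and 0 by DESeq2 and limma-voom, and the pseudouridine synthase Dkc1 had -0.31 (adjusted p = 0.12). Of 13 assembly factors 3 fell, namely Pih1d1 of the R2TP complex at -0.40 (adjusted p = 0.00711), Naf1, an H/ACA assembly factor, at -0.32 (adjusted p = 0.0271) and Znhit3 at -0.37 (adjusted p = 0.0435). Of 11 release and trimming factors 2 fell, the exosome subunit Exosc3 at -0.36 (adjusted p = 0.01) and the exosome cofactor C1d at -0.28 (adjusted p = 0.0304). Limma-voom called Snu13 in KO gel against KO media alone and did not call Znhit3. The medians of these 4 lists were -0.33, -0.25, -0.22 and -0.14, against -0.01 over all genes. Of 12 nonsense-mediated decay genes 2 rose, the kinase Smg1 at 0.41 (adjusted p = 0.00411) and Upf2 at 0.31 (adjusted p = 0.0194).

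Small Cajal body RNAs guide modification of spliceosomal RNAs, and 4 of the 7 tested rose in KO gel against KO media, against 11.1% of all genes. They were Scarna9 at 0.54 (adjusted p = 0.00285), Scarna17 at 0.73 (adjusted p = 0.0055), Scarna2 at 0.38 (adjusted p = 0.0117) and Scarna13 at 0.35 (adjusted p = 0.0166). Scarna2, Scarna17 and Scarna9 also rose for KO against WT in gel, at 0.43 (adjusted p = 0.00676), 0.75 (adjusted p = 0.00702) and 0.42 (adjusted p = 0.015). Scarna13 lies in Snhg10, whose own change in KO gel against KO media was 0.23 (adjusted p = 0.509). Of 14 further structured RNAs 1 rose, the transcription regulator Rn7sk at 0.28 (adjusted p = 0.0296), and 1 fell, the Y RNA Rny3 at -0.71 (adjusted p = 0.0395). For KO against WT in gel 4 of the 14 rose, against 7.12% of all genes, namely the RNase P RNA Rpph1 at 0.66 (adjusted p = 0.0104), the signal recognition particle RNA Rn7s2 at 0.48 (adjusted p = 0.0244), the vault RNA Vaultrc5 at 1.18 (adjusted p = 0.0307) and Rn7sk at 0.29 (adjusted p = 0.0317). In WT gel against WT media and in KO against WT media, 0 genes of the lists named in this and the preceding paragraph were called by edgeR, DESeq2 or limma-voom, with the counts at an unadjusted p under 0.05 running from 0 to 2 per list.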

How the data were processed

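Bulk RNA-seq of 12 libraries was used, 3 in each of 4 groups. Per the labels' protocols, 150 ng of total RNA was taken per library, ribosomal RNA was removed with RiboCop and libraries were made with the KAPA RNA HyperPrep kit. The authors deposited raw counts per gene symbol. HISAT2, featureCounts, Picard, SAMtools, FastQC and MultiQC are listed with GRCm38 (mm10), per the submitters' processing notes. Their versions, the annotation and the strand, duplicate and multi-mapping settings are not stated in these sources, and each could change the count of a short gene inside another or of near copies such as Snora73a and Snora73b.

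Counts were filtered with filterByExpr, which left 19010 genes and all 61 members with a mean of at least 10 counts, scaled by TMM factors and fitted to the 4 groups at once with edgeR's quasi-likelihood F test (R 4.3.3, edgeR 4.0.16, limma 3.58.1, DESeq2 1.42.0), with Benjamini-Hochberg adjustment over all genes tested and calls at an adjusted p under 0.05. The procedure was checked on simulated data. Ratios between snoRNAs were compared by exact permutation tests in SciPy 1.17.1. Genes were placed with GENCODE M21, of the files' build; Snhg4 and Snhg16 were placed by RefSeq. A snoRNA's host is the same-strand gene that contains it and has the most counts. Replicates are separate libraries in the labels, and where these do not come from separate animals, p-values measure technical spread. Pairs of replicates differed by more than counting noise (chi-square per degree of freedom 13.2 to 171).

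Named by library were the 5 members of each class with the highest mean CPM, the 4 with the smallest p per contrast, and members called in a contrast other than gel against media in KO cells. The members and lists were chosen with earlier results of these data known. Not analysed here were 94 members under 10 counts beyond their detection.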

Additional observations from a re-analysis of the deposited data

How the results depend on the processing

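No called member changed direction in any alternative. For gel against media in KO cells, where 8 members were called, the count was 5 with total-count scaling, 2 when only genes averaging 3 or more on the log2 CPM scale were fitted, 0 without WT gel replicate 2 and KO media replicate 3, 0 also without WT media replicate 2 besides, and 1 to 8 leaving out 1 library at a time. For KO against WT in gel, with 8 called, the count was 3 with the restriction by level, 3 without WT gel replicate 2 and KO media replicate 3, 1 (Snord82) without WT media replicate 2 besides, and 2 to 9 leaving out 1 library at a time. With no filter beyond 1 count, 4 members were called lower for gel against media in WT cells (Snora62, Snora73b, Snord15a and Snord17), 3 lower for KO against WT in media (Snora73b, Snora78 and Snord17) and 5 higher in the interaction, where the main count is 0 in each. Leaving out 1 library gave 0 to 1 calls in the interaction. The cause of these changes was not tested, except that only 15 members entered the fit restricted by level.

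Leaving out WT media replicate 2, alone or with those libraries, and recounting snoRNAs above their hosts were alternatives chosen after seeing the data. Over the 16 calls, 233 of 342 alternative fits kept the call and 109 lost it. Snord82 for KO against WT in gel kept its call in all 21 of its alternatives, and Snhg12 in 21 of 22. The deviations of same-numbered libraries from their group means correlated at 0.06 to 0.51 between gel and media of 1 genotype. Across genotypes these correlations ran from -0.21 to 0.13. A library correlated best with its own number in 20 of 36 comparisons with another group. The labels do not say whether the numbers mark shared animals, so the main fit did not use them as pairs. Whether the libraries are paired was not settled. Blocks by replicate number were set within each genotype for gel against media and the interaction, and across genotypes for KO against WT. With these blocks the counts were 12 for gel against media in KO cells, 9 for KO against WT in gel and 5 in the interaction (Snhg15, Snhg20, Snord104, Snord82 and Snord83b, all higher), against 8, 8 and 0, and 0 in the other contrasts. With only the libraries of the compared groups the 2 larger counts were 11 and 11. Members such as Snora69 and Snord93 rest on 28 reads or fewer per library, which limits what can be detected for them.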
